A study of Homo sapiens with 12 samples.

Results

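The genes described here are 10 cytokines, cytokine receptors and decoys that act on lymphocytes and myeloid cells: *IL15*, *IL15RA*, *IL7*, *IL12A*, *IL18*, *IL18BP*, *IL32*, *IL33*, *TNFSF13B* and *CSF1*. They were taken by symbol from a table of 45416 genes and were followed over 12 RNA-seq libraries of U251, an established human glioblastoma cell line. All 10 were present once in the table and all 10 passed the filter on low reads, which left 17982 genes in the test. U251 cells of unmodified genotype had been transfected for 48 h with a non-targeting siRNA (siNC) or with 1 of 2 siRNAs against PD-L1 (siPDL1-1 and siPDL1-2). Each of the 3 siRNAs was sequenced without stimulation and after 24 h in 100 U/ml IFNγ, which gave 6 groups of 2 libraries. Every group was therefore transfected, and the labels name a single cell line and no immune cells. The methods speak of independent experiments, whereas the labels only number the libraries, so a p-value here measures the spread between libraries, which may in part be technical. In bulk RNA, fewer cells that make a transcript and less transcript in each cell cannot be told apart.

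IL15, IL7 and BAFF, the product of *TNFSF13B*, keep T cells, NK cells and B cells alive, and IL15 is usually displayed to neighbouring cells on IL15RA. IL12 and IL18 drive lymphocytes to make IFNγ, and IL18BP is a secreted decoy that binds IL18 and keeps it from its receptor. CSF1 is the growth factor of macrophages and microglia, the myeloid cells that infiltrate glioblastoma. The comparisons asked how these genes responded to IFNγ and whether either PD-L1 siRNA altered their level or their response.

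The libraries held 17101069 to 55657393 reads, so 1 read stood for 0.0187 to 0.0586 normalized CPM (a read count per fixed number of reads in the library, scaled between libraries by the authors). Glioma line markers summed to 3998 to 4922 CPM, mostly from *VIM* (3139 to 3968 CPM), and *CD44*, *NES*, *SOX2* and *EGFR* were also high. The astrocytic markers *GFAP* and *S100B* reached 7.25 and 5.92 CPM at most, and *CHI3L1* 3.60 CPM. The 13 immune cell markers together summed to 0.196 to 0.986 CPM, and *CD2* and *MS4A1* had 0 reads in every library. *CD274*, which encodes PD-L1, averaged 4.76 CPM ± 0.217 (SD, n = 2) in unstimulated siNC cells, 2.70 ± 0.0436 with siPDL1-1 and 3.51 ± 0.0860 with siPDL1-2. After IFNγ it averaged 73.6 CPM ± 3.43 in siNC, 63.8 ± 4.04 in siPDL1-1 and 36.3 ± 1.76 in siPDL1-2. On the scale used throughout, log2(CPM + 1), *CD274* was lower by siPDL1-1 without IFNγ (log2 difference -0.64, FDR 1.76e-05) and by siPDL1-2 with IFNγ (-1.0, FDR 4.25e-07). The difference for siPDL1-1 with IFNγ was -0.20 (FDR 0.0498) and that for siPDL1-2 without IFNγ was -0.35 (FDR 0.00183), so neither passed both thresholds. A gene was called when the Benjamini-Hochberg adjusted p of limma over all genes tested (FDR) was below 0.01 and the fold change exceeded 1.5. The fold change was taken on this scale, where adding 1 CPM compresses the differences of genes at a few CPM or less.

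IFNγ raised 8 of the 10 genes in siNC cells, the same number in siPDL1-1 cells and 7 of 10 in siPDL1-2 cells. Among all genes tested, 6.67% rose in siNC, 5.58% in siPDL1-1 and 3.62% in siPDL1-2. The median log2 difference of the 10 genes was 1.14, 1.44 and 1.22 in these 3 settings, whereas that of all genes tested lay between -0.02 and 0.00. *IL18BP*, *IL15RA*, *IL15*, *IL32*, *CSF1*, *IL12A* and *TNFSF13B* rose with all 3 siRNAs. *IL7* was called in siNC and siPDL1-1 cells, and *IL18* and *IL33* were called in no siRNA group.

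**Figure D1:**
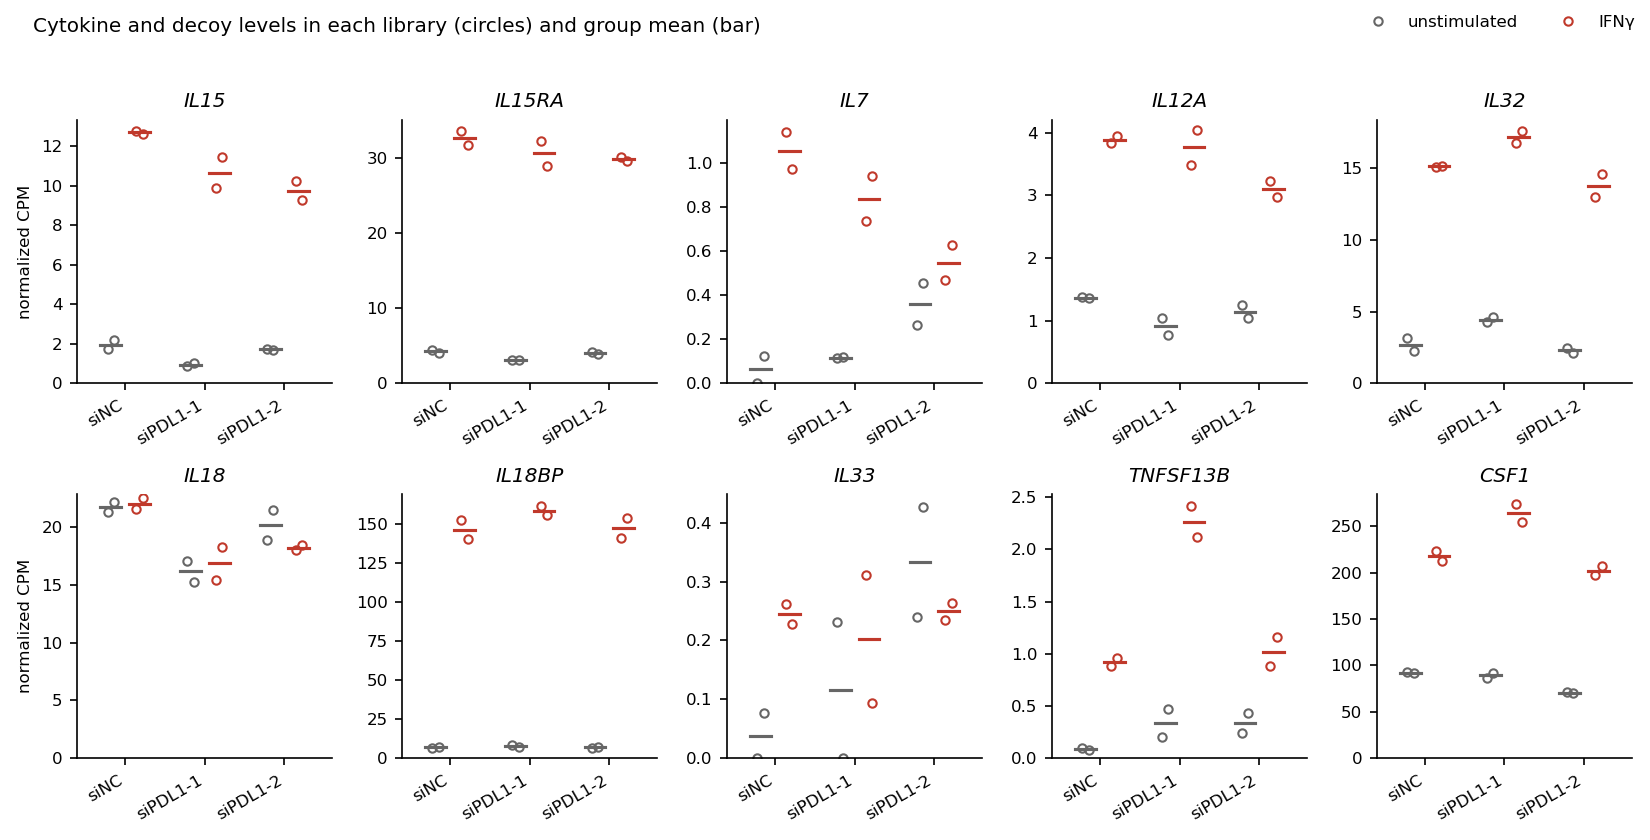
Normalized CPM of the 10 genes in each of the 12 libraries, with a separate vertical axis from 0 for each gene. Circles are libraries, bars are means of 2 libraries, grey is unstimulated and red is IFNγ. Within each siRNA group both red circles lie above both grey ones for 8 genes, the exceptions being *IL18* and *IL33*.

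The decoy *IL18BP* showed the largest response of the 10 genes. *IL18BP* (ENSG00000137496, 11:71998613-72005715, plus strand, GRCh38) read 6.61 and 7.14 CPM in unstimulated siNC cells and 152 and 140 CPM after IFNγ. In siPDL1-1 cells it went from 8.50 and 7.23 CPM to 161 and 155 CPM, and in siPDL1-2 cells from 6.59 and 7.23 CPM to 141 and 154 CPM. The stimulated libraries lay far above the unstimulated ones in each case, and both stimulated siPDL1-1 libraries lay above those of siNC and siPDL1-2, which overlapped each other. The log2 difference was 4.22 (95% interval 4.06 to 4.39, FDR 1.39e-15 by limma with Benjamini-Hochberg adjustment) in siNC, 4.17 in siPDL1-1 and 4.23 in siPDL1-2. Pooled reads gave a ratio of 21.0 in siNC with an exact interval of 19.1 to 23.2, which like all such intervals here covers counting error only. *IL18BP* shares 1031 exon bases with *NUMA1* on the opposite strand, and reads were counted without regard to strand. *NUMA1* ran at 188 to 270 CPM and moved the other way after IFNγ in siNC cells (log2 difference -0.26), and its part in the *IL18BP* values was not tested.

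*IL18*, the cytokine that IL18BP binds, did not follow its decoy. *IL18* (ENSG00000150782, 11:112143253-112164096, minus strand) read 21.3 and 22.2 CPM in unstimulated siNC cells and 21.6 and 22.5 CPM after IFNγ. It read 17.1 and 15.3 CPM without and 15.4 and 18.3 CPM with IFNγ in siPDL1-1 cells, and 19.0 and 21.5 CPM without and 18.0 and 18.4 CPM with IFNγ in siPDL1-2 cells. Stimulated and unstimulated ranges overlapped in siNC and siPDL1-1 cells. The IFNγ difference was 0.02 in siNC (95% interval -0.17 to 0.21, FDR 0.897), 0.05 in siPDL1-1 (-0.13 to 0.24) and -0.14 in siPDL1-2 (-0.33 to 0.05), so each interval lay inside the 1.5-fold limit. Scaled per kb of exon, *IL18BP* stood at 0.138 to 0.143 of the level of *IL18* in unstimulated siNC libraries and at 2.77 to 3.14 times that level after IFNγ. The same ratio went from 0.210 to 0.221 up to 3.77 to 4.64 in siPDL1-1 libraries and from 0.150 to 0.155 up to 3.48 to 3.71 in siPDL1-2 libraries. The order of decoy and ligand transcripts was thus reversed by IFNγ in all 3 siRNA groups.

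The promoter of *IL18BP* is printed because this gene had the largest response and 1 of its windows held 2 of the 3 motifs searched. The motifs were an interferon-stimulated response element written as GAAANNGAAA, a gamma-activated site written as TTCNNNGAA and an NF-kB site written as GGGANNTNCC, each on both strands of 300-base RefSeq windows (GRCh38.p14). Of 35116 such windows, 3.57% held the first, 7.66% the second and 4.93% the third. Counted by gene over all its windows, the shares of 27305 genes were 4.38%, 9.38% and 5.99%. *IL15RA*, *IL12A*, *IL18BP*, *IL32*, *IL33* and *TNFSF13B* had 15 windows in the table used here, while *IL15*, *IL18* and *CSF1* had no entry. *IL7* was left out of the search. These 6 genes had more windows per gene (15 in all) than the 27305 genes did (35116 in all). Some of the 15 windows overlapped, so the shares by gene are not a like background. Each motif was found in 3 of these 6 genes: the response element in *IL12A*, *IL18BP* and *TNFSF13B*, the gamma-activated site in *IL15RA*, *IL18BP* and *IL33*, and the NF-kB site in *IL15RA*, *IL18BP* and *IL32*. *IL33*, with its match at position 15, was not called for IFNγ. The *IL18BP* window chr11:71999367-71999666 (plus strand) matched the response element at position -67, counted from 0 at the first transcribed base, and the gamma-activated site at positions -37 and -7. The matches, in capitals, lay apart from each other.
IL18BP: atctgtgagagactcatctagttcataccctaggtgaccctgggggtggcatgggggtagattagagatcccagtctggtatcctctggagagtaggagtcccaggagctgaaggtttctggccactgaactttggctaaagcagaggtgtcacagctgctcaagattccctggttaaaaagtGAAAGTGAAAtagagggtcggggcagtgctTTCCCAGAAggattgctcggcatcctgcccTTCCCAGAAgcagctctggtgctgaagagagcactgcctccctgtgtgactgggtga

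*IL15* and *IL15RA*, the cytokine and the chain that presents it, rose together. *IL15* (ENSG00000164136, 4:141636583-141733987, plus strand) read 1.71 and 2.20 CPM in unstimulated siNC cells and 12.8 and 12.6 CPM after IFNγ. It went from 0.870 and 1.04 CPM to 9.87 and 11.4 CPM in siPDL1-1 cells, and from 1.75 and 1.71 CPM to 10.3 and 9.25 CPM in siPDL1-2 cells. No stimulated library overlapped an unstimulated one, and the 2 stimulated siNC libraries were the highest of the 12. The log2 differences were 2.22 in siNC (95% interval 1.97 to 2.46, limma FDR 6.21e-10), 2.58 in siPDL1-1 and 1.98 in siPDL1-2. Adding 1 CPM compresses these, and pooled *IL15* reads gave ratios of 6.2 (exact interval 5.2 to 7.6), 10.9 (8.5 to 14) and 5.6 (4.6 to 6.8). *IL15RA* (ENSG00000134470, 10:5943639-5978187, minus strand) went from 4.50 and 4.05 CPM to 33.6 and 31.8 CPM in siNC cells. It went from 3.07 and 3.11 CPM to 32.3 and 29.0 CPM in siPDL1-1 cells, and from 4.19 and 3.91 CPM to 30.2 and 29.6 CPM in siPDL1-2 cells. Its log2 differences were 2.68 in siNC (95% interval 2.50 to 2.85, limma FDR 1.16e-12), 2.95 in siPDL1-1 and 2.61 in siPDL1-2.

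Per kb of exon, *IL15RA* exceeded *IL15* in all 12 libraries. The ratio of the receptor to the cytokine was 3.99 to 5.70 in unstimulated siNC libraries and 5.45 to 5.71 after IFNγ, so these ranges overlapped. It was 6.50 to 7.66 without and 5.50 to 7.09 with IFNγ in siPDL1-1 libraries, and 4.96 to 5.20 without and 6.38 to 6.95 with IFNγ in siPDL1-2 libraries. *IL15RA* shares 151 exon bases with *AL137186.2*, a gene on the same strand at 2.35 to 4.26 CPM, which did not differ by IFNγ in siNC cells at the threshold (log2 difference -0.16, FDR 0.436). The *IL15RA* window with a gamma-activated site match, at position -127, is shown in capitals below as the receptor's counterpart to the decoy, and lies at chr10:5977997-5978296 on the minus strand.
IL15RA: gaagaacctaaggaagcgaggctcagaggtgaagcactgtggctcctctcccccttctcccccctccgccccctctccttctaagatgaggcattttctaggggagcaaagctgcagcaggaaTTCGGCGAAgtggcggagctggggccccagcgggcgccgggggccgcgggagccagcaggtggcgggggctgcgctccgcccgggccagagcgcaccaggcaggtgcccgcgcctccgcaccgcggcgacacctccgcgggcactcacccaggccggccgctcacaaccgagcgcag

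*IL32*, a cytokine of lymphocytes and epithelial cells that induces other inflammatory cytokines, rose from 3.13 and 2.25 CPM to 15.1 and 15.2 CPM in siNC cells. *IL32* (ENSG00000008517, 16:3065297-3082192, plus strand) went from 4.26 and 4.59 CPM to 16.8 and 17.6 CPM in siPDL1-1 cells, and from 2.44 and 2.14 CPM to 12.96 and 14.58 CPM in siPDL1-2 cells. The stimulated libraries were above all unstimulated ones, and siPDL1-1 libraries were the highest in both states. The log2 difference by IFNγ was 2.14 in siNC (95% interval 1.89 to 2.38, limma FDR 9.09e-10), 1.74 in siPDL1-1 and 2.17 in siPDL1-2. The *IL32* window chr16:3065153-3065452 (plus strand) held an NF-kB site match at position -99, in capitals, and no match to the interferon motifs, unlike the window of the decoy.
IL32: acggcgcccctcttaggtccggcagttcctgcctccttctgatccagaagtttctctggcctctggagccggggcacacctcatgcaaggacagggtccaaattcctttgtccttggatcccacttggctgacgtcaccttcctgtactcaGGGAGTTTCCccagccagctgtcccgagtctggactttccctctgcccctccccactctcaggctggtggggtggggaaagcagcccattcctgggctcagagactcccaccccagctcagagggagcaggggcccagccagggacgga

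*CSF1* was the most abundant of the 10 genes per kb of exon in all 6 groups. *CSF1* (ENSG00000184371, 1:109910242-109930992, plus strand) read 92.7 and 91.5 CPM in unstimulated siNC cells and 224 and 213 CPM after IFNγ. It read 86.4 and 91.9 CPM and then 274 and 255 CPM in siPDL1-1 cells, and 70.9 and 70.3 CPM and then 197 and 207 CPM in siPDL1-2 cells. Replicate libraries lay close together, and the stimulated siPDL1-1 libraries stood above those of siNC and siPDL1-2. The log2 difference by IFNγ was 1.23 in siNC (95% interval 1.13 to 1.34, limma FDR 2.36e-11), 1.56 in siPDL1-1 and 1.5 in siPDL1-2. Its receptor gene *CSF1R* stayed at 0.318 to 1.13 CPM in the 12 libraries, and *IL34*, the other ligand of that receptor, at 0.116 CPM or less.

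*IL12A* encodes the p35 subunit that IL12 and IL35 share. *IL12A* (ENSG00000168811, 3:159988835-159996019, plus strand) went from 1.37 and 1.37 CPM to 3.84 and 3.94 CPM in siNC cells. It went from 1.04 and 0.777 CPM to 3.49 and 4.05 CPM in siPDL1-1 cells, and from 1.25 and 1.04 CPM to 3.23 and 2.97 CPM in siPDL1-2 cells. Stimulated and unstimulated libraries did not overlap. The log2 difference was 1.05 in siNC (95% interval 0.79 to 1.30, limma FDR 6.62e-06), 1.32 in siPDL1-1 and 0.94 in siPDL1-2. Adding 1 CPM compresses these, and pooled *IL12A* reads gave ratios of 2.8 (exact interval 2.2 to 3.7), 4.1 (3.1 to 5.5) and 2.7 (2.0 to 3.5). *IL12B*, which encodes the p40 partner needed for IL12, had 0 reads in all 12 libraries, against a limit of 3 reads that corresponds to 0.0562 to 0.176 CPM. *EBI3*, the partner of p35 in IL35, ran at 0.124 to 0.965 CPM. The *IL12A* window chr3:159988585-159988884 (plus strand) matched the response element on the reverse strand at position 1, which is shown in capitals because it lies just past the first transcribed base and not before it.
IL12A: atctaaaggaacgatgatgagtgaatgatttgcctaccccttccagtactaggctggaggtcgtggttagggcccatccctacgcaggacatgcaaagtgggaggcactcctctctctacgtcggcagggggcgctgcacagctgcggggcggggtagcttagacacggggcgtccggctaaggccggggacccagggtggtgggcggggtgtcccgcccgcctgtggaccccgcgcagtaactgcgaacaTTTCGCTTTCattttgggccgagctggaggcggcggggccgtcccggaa

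*TNFSF13B* was scarce in unstimulated cells. *TNFSF13B* (ENSG00000102524, 13:108251240-108308484, plus strand) read 0.0979 and 0.0759 CPM in unstimulated siNC cells, which is 2 and 3 reads, and 0.880 and 0.955 CPM after IFNγ. It went from 0.203 and 0.471 CPM to 2.41 and 2.12 CPM in siPDL1-1 cells, and from 0.240 and 0.427 CPM to 0.880 and 1.16 CPM in siPDL1-2 cells. The stimulated libraries exceeded every unstimulated library, and the stimulated siPDL1-1 libraries were the highest of all. The log2 difference by IFNγ was 0.82 in siNC (95% interval 0.54 to 1.10, limma FDR 0.000152), 1.29 in siPDL1-1 (FDR 1.83e-06) and 0.60 in siPDL1-2 (FDR 0.00328). Adding 1 CPM compresses the change of so low a gene, and pooled reads gave ratios of 11.0 (exact interval 4.54 to 34.6), 6.56 (4.31 to 10.3) and 3.28 (1.98 to 5.58). The call in siPDL1-2 cells was lost with DESeq2 (FDR 0.0174) and without the filter on low reads (FDR 0.0112). Leaving out siPDL1-2 replicate 1 without IFNγ gave an FDR of 0.0466, and leaving out replicate 2 with IFNγ gave 0.0391. The *TNFSF13B* window chr13:108269468-108269767 (plus strand) held a response element match at position -71, in capitals, with the same 10 letters as the match of *IL18BP*.
TNFSF13B: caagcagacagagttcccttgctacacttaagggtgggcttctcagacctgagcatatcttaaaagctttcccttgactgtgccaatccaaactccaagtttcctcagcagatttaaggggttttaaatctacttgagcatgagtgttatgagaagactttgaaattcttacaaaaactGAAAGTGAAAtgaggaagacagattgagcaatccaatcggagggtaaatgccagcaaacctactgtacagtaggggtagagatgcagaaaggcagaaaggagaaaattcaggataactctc

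*IL7*, which supports the survival of naive and memory T cells, was close to the counting limit without IFNγ. *IL7* (ENSG00000104432, minus strand) read 0 and 0.127 CPM in unstimulated siNC cells and 1.14 and 0.975 CPM after IFNγ. It went from 0.116 and 0.118 CPM to 0.738 and 0.941 CPM in siPDL1-1 cells. In siPDL1-2 cells it read 0.264 and 0.458 CPM without and 0.469 and 0.628 CPM with IFNγ. Stimulated libraries exceeded the unstimulated ones of the same siRNA, by the least in siPDL1-2 cells. The siPDL1-2 cells started higher and ended lower than the other siRNA groups. The log2 difference by IFNγ was 0.95 in siNC (95% interval 0.69 to 1.22, limma FDR 1.90e-05), 0.72 in siPDL1-1 (0.46 to 0.98) and 0.19 in siPDL1-2 (-0.07 to 0.45). Pooled reads gave ratios of 12.8 (exact interval 5.30 to 40.0), 6.96 (3.37 to 16.2) and 1.64 (0.918 to 2.92). *ZC2HC1A* shares 322 exon bases with *IL7* on the opposite strand and had a mean of 4.52 CPM against 0.498 CPM for *IL7*. It too was higher after IFNγ in siNC cells (log2 difference 0.60, limma FDR 0.00171) and differed by -0.33 in siPDL1-2 cells (FDR 0.0687). *AC083837.1*, also on the opposite strand, shares 231 exon bases with *IL7* and had a mean of 0.271 CPM. Its log2 difference by IFNγ was 0.52 in siNC (limma FDR 0.00166), 0.49 in siPDL1-1 and 0.40 in siPDL1-2, each under the fold threshold. Adding 1 CPM compresses these differences, as *AC083837.1* went from 0.098 to 0.10 CPM up to 0.51 to 0.64 CPM in siNC libraries. The same ranges were 0.047 to 0.087 and 0.42 to 0.57 CPM in siPDL1-1, and 0.024 to 0.031 and 0.29 to 0.43 CPM in siPDL1-2 libraries. As strand was not used in the counting, reads of these genes cannot be told apart in the shared bases. The part of either overlapping gene in the *IL7* values was not tested.

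**Figure D2:**
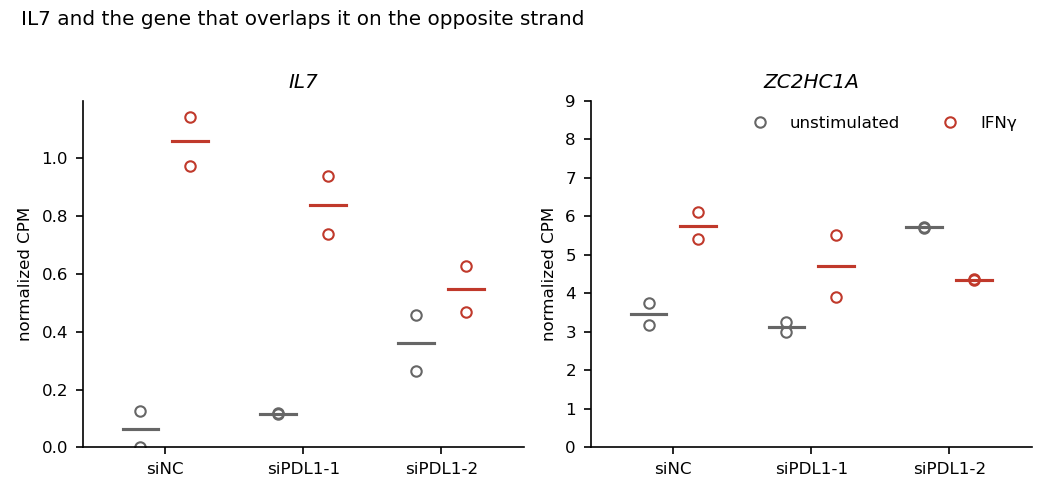
Normalized CPM of *IL7* and of *ZC2HC1A*, which overlaps it on the opposite strand, by siRNA. Circles are the 2 libraries of a group, bars are their mean, grey is unstimulated and red is IFNγ. Among unstimulated groups both genes were highest in siPDL1-2 cells, and both rose with IFNγ in siNC cells.

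*IL33*, an alarmin of stromal cells that acts on type 2 lymphocytes, had too few reads for its response to be read. *IL33* (ENSG00000137033, 9:6215786-6257983, plus strand) had 0 and 3 reads in unstimulated siNC libraries and 14 and 11 reads after IFNγ. It had 8 and 0 reads, then 11 and 2 reads in siPDL1-1 libraries, and 10 and 14 reads, then 4 and 8 reads in siPDL1-2 libraries. Its highest level was 0.427 CPM. The log2 differences by IFNγ were 0.26, 0.11 and -0.09 in siNC, siPDL1-1 and siPDL1-2 cells, with limma FDR of 0.132, 0.566 and 0.653. The pooled ratio in siNC cells was 4.92 with an exact interval of 1.5 to 25.4, whereas that in siPDL1-2 cells was 0.787 (0.359 to 1.64). A change in *IL33* was not detectable at this depth across replicates.

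**Figure D3:**
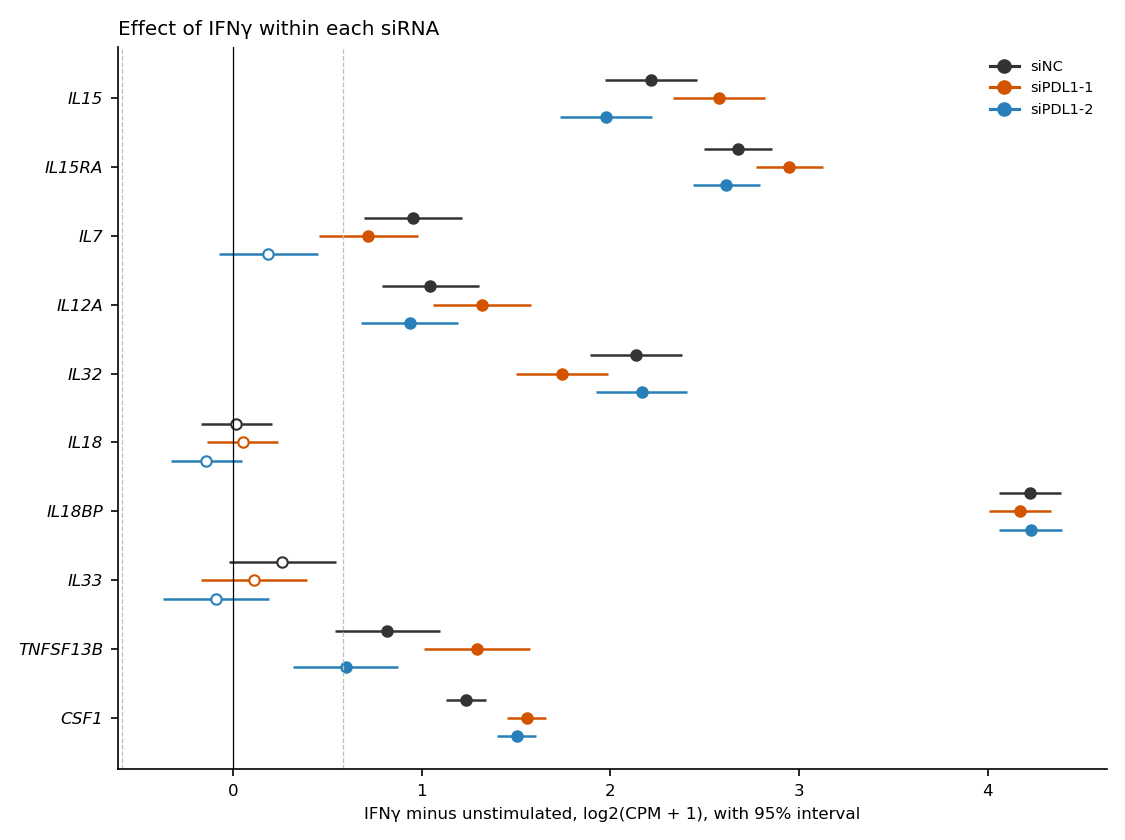
Difference between IFNγ-stimulated and unstimulated cells for each gene within siNC, siPDL1-1 and siPDL1-2, on the log2(CPM + 1) scale with 95% intervals from limma. Filled circles were called, open ones were not, and dashed lines mark a fold change of 1.5. *IL18BP* lies near 4.2 for all 3 siRNAs and *IL18* near 0.

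Levels were compared between genes only per kb of exon. In unstimulated siNC cells the order was *CSF1* (17.6 CPM per kb), *IL18* (8.35), *IL15RA* and *IL18BP* (both 1.18), *IL32* (0.839), *IL12A* (0.700), *IL15* (0.249), *TNFSF13B* (0.0284), *IL7* (0.0187) and *IL33* (0.0117). The library ranges of *IL15RA* and *IL18BP* overlapped, as did those of *TNFSF13B* and *IL7* and those of *IL7* and *IL33*. After IFNγ the order in siNC cells was *CSF1* (41.7 CPM per kb), *IL18BP* (25.0), *IL15RA* (9.00), *IL18* (8.46), *IL32* (4.71), *IL12A* (1.99), *IL15* (1.61), *IL7* (0.312), *TNFSF13B* (0.300) and *IL33* (0.0754). Of these neighbours, *IL7* and *TNFSF13B* overlapped. *IL18BP* therefore moved from the level of *IL15RA* to the second place, and *IL18* fell behind *IL15RA* as well at a nearly constant level.

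**Figure D4:**
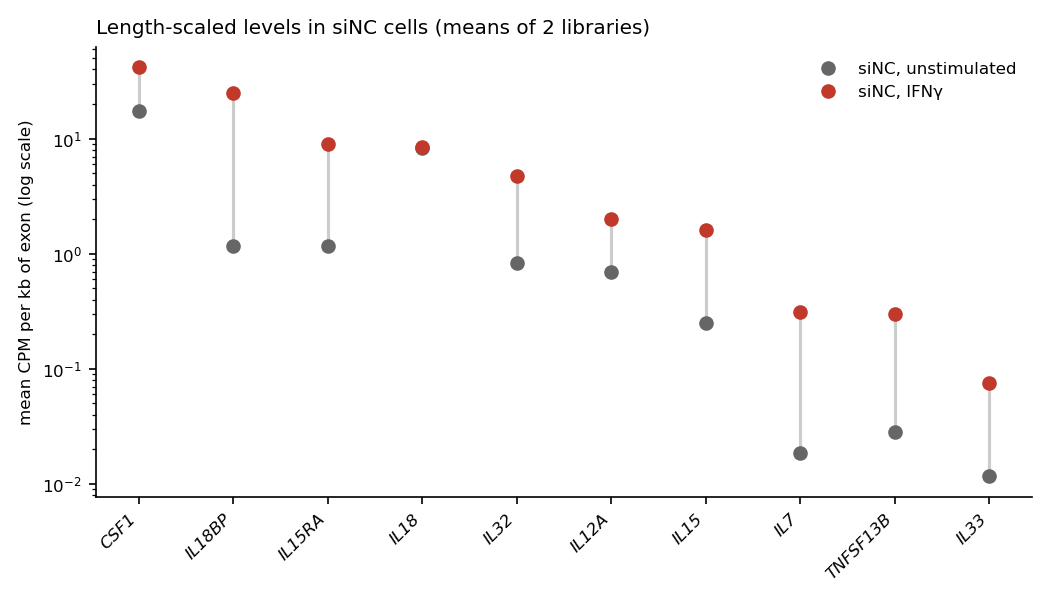
Mean CPM per kb of exon of the 10 genes in siNC cells without (grey) and with IFNγ (red), on a log axis, each the mean of 2 libraries. Genes are ordered by their level after IFNγ, from *CSF1* at 41.7 to *IL33* at 0.0754, and the points of *IL18* nearly coincide.

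Without IFNγ, *IL15* was the gene that passed both thresholds between a PD-L1 siRNA and siNC. With siPDL1-1, 1 of the 10 genes was called against siNC, while 4% of all genes tested were called in either direction, and 7 of the 10 had an unadjusted p under 0.05. *IL15* was lower in both siPDL1-1 libraries (0.870 and 1.04 CPM) than in both siNC libraries (1.71 and 2.20 CPM). Pooled *IL15* reads gave a ratio of 0.47 (exact interval 0.35 to 0.64). Its log2 difference was -0.60 (95% interval -0.84 to -0.35, limma FDR 0.00107), and it was not called without unstimulated siNC replicate 2 (FDR 0.0184) or without unstimulated siPDL1-1 replicate 1 (FDR 0.0192). *IL32* differed by 0.57 (FDR 0.00152), just under the fold threshold, and passed it with edgeR (FDR 0.00116), DESeq2 (FDR 0.00105) and a pseudocount of 0.1 CPM (FDR 0.00121). *IL15RA* (-0.37, FDR 0.00387) and *IL18* (-0.41, FDR 0.00269) also had an FDR below 0.01 with a fold change under 1.5. With siPDL1-2, 0 of the 10 were called by limma, against 6.17% of all genes. Of these 10 genes 4 had an unadjusted p under 0.05, and edgeR and DESeq2 also called 0, with no adjusted p from DESeq2 for 1 gene. With a pseudocount of 0.1 CPM, limma called *IL7* (log2 difference 1.58 in place of 0.35, FDR 0.00573). *CSF1* was lower by 0.38 on the log2 scale with siPDL1-2 (-0.38, FDR 2.60e-05), which is under the fold threshold. For the 3 scarcest genes, compressed most by adding 1 CPM, pooled reads gave some ratios to siNC with exact intervals above 1. That of *TNFSF13B* was 4.21 (1.60 to 14.0) with siPDL1-1 and 3.86 (1.44 to 12.96) with siPDL1-2. With siPDL1-2, that of *IL7* was 4.18 (1.58 to 13.9) and that of *IL33* 6.44 (1.96 to 33.4). These rest on 3 to 5 reads in siNC cells and do not include the spread between libraries.

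After IFNγ, *TNFSF13B* was the gene that differed between siPDL1-1 and siNC cells. It was the 1 gene of 10 called, against 5.47% of all genes tested, with 2.41 and 2.12 CPM in siPDL1-1 libraries and 0.880 and 0.955 CPM in siNC libraries. The log2 difference was 0.77 (95% interval 0.49 to 1.05, limma FDR 0.000320), and pooled reads gave a ratio of 2.51 (exact interval 1.91 to 3.32). The FDR was 0.0215 with DESeq2 and 0.0124 with a pseudocount of 0.1 CPM, so the call was lost there. *CSF1* was higher (0.27, FDR 0.000458) and *IL18* lower (-0.37, FDR 0.00411), both under a fold change of 1.5. With siPDL1-2 and IFNγ, limma called 0 of the 10 against 3.13% of all genes, and 4 had an unadjusted p under 0.05. There edgeR and DESeq2 called 0, with no adjusted p from DESeq2 for 2 genes. The stimulated siPDL1-1 libraries also stood apart in the summed level of 12 genes of an interferon response, which include the interferon genes *IFNB1* and *IFNL1*. The sum was 3903 to 3988 CPM in those libraries, against 404 to 429 CPM in stimulated siNC and 435 to 450 CPM in stimulated siPDL1-2 libraries. Without IFNγ it was 97 to 98 CPM with siPDL1-1, 57 to 58 CPM with siNC and 50 to 52 CPM with siPDL1-2. Not every gene shared this, as *MX1* stayed at 3.02 to 5.44 CPM in all 12 libraries. *IFNB1* reached 0.511 to 1.22 CPM and *IFNL1* 1.67 to 1.69 CPM in the stimulated siPDL1-1 libraries, and both were at 0.0586 CPM or less in the other 10 libraries. The part of this response in the *TNFSF13B* difference was not tested.

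**Figure D5:**
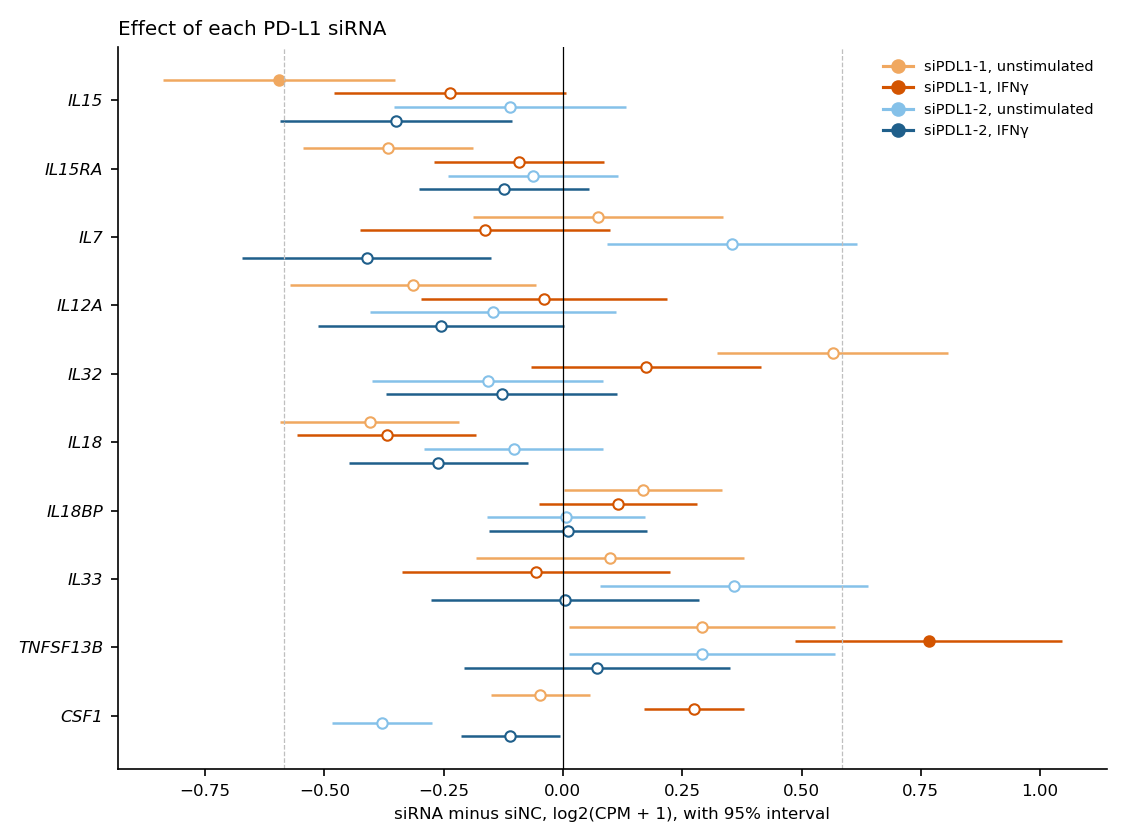
Difference of each PD-L1 siRNA from siNC for the 10 genes, without and with IFNγ, on the log2(CPM + 1) scale with 95% intervals from limma. Filled circles were called (*IL15* for siPDL1-1 without IFNγ at -0.60 and *TNFSF13B* for siPDL1-1 with IFNγ at 0.77), open ones were not, and dashed lines mark a fold change of 1.5.

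The siRNAs were also compared with each other. Without IFNγ, *IL32* was the 1 gene of 10 called between siPDL1-1 and siPDL1-2, against 4.35% of all genes. It was higher in siPDL1-1 libraries (4.26 and 4.59 CPM) than in siPDL1-2 libraries (2.44 and 2.14 CPM), with a log2 difference of 0.72 (95% interval 0.48 to 0.96, limma FDR 0.000196). *IL15* differed by -0.48 (FDR 0.00396) in the same comparison, under the fold threshold, and was called with edgeR, DESeq2 and a pseudocount of 0.1 CPM. With IFNγ, *TNFSF13B* was the 1 gene called between the PD-L1 siRNAs (log2 difference 0.70, limma FDR 0.00162), against 2.23% of all genes. That call was lost with edgeR (FDR 0.0225), with a pseudocount of 0.1 CPM (FDR 0.0388), and without stimulated replicate 1 of siPDL1-1 (FDR 0.0105) or of siPDL1-2 (FDR 0.0198).

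Whether the response to IFNγ itself differed between siRNAs was tested by the interaction. For siPDL1-1 against siNC, limma called 0 of 10 genes (0.968% of all genes), and 5 had an unadjusted p under 0.05. There edgeR and DESeq2 called 0, with no adjusted p from DESeq2 for 3 genes. For siPDL1-2 against siNC it called 1 of 10, against 7.62% of all genes. This was *IL7*, whose response was smaller in siPDL1-2 cells by 0.77 on the log2 scale (difference -0.77, 95% interval -1.14 to -0.40, FDR 0.00412). The call was lost without the filter on low reads (FDR 0.0109) and without any 1 of 4 libraries (FDR 0.0144 to 0.0238). These were replicate 1 of unstimulated siNC, of stimulated siNC and of stimulated siPDL1-2, and replicate 2 of unstimulated siPDL1-2. Of the overlapping genes, *ZC2HC1A* had an interaction of -0.93 (FDR 0.00167) in the same direction, and *AC083837.1* one of -0.11 (FDR 0.641). The latter is compressed by adding 1 CPM, as *AC083837.1* stayed at 0.643 CPM or less. *CSF1* had a larger response in siPDL1-2 than in siNC cells (0.27, 95% interval 0.12 to 0.42, FDR 0.00898), under the fold threshold. Its estimate for siPDL1-1 against siNC was 0.32 (95% interval 0.17 to 0.47, FDR 0.017), and between the PD-L1 siRNAs it was 0.05 (FDR 0.632). Between siPDL1-1 and siPDL1-2, limma called 0 of 10 (4.87% of all genes) with 6 at an unadjusted p under 0.05. There edgeR called 1, which was *IL15*, and DESeq2 called 0, without an adjusted p for 3 genes. For *IL18BP* the 3 interaction estimates lay between -0.06 and 0.00.

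Of 13 genes for receptor chains of these cytokines, 8 passed the filter and 2 rose with IFNγ in siNC cells, against 6.67% of all genes tested, with a median log2 difference of 0.17. *IL12RB1*, a chain of the IL12 receptor, went from a mean of 0.0253 to 3.27 CPM ± 0.0695 (SD, n = 2), and its partner *IL12RB2* was at 0.845 and 1.09 CPM. *TNFRSF13C*, the BAFF receptor, went from 2.67 to 5.35 CPM (log2 difference 0.79, limma FDR 0.000102). *IL7R* went from 20.4 to 29.4 CPM (0.51, FDR 0.000310), under the fold threshold, while *IL2RG*, the common chain that IL7 and IL15 receptors need, stayed at 0.235 CPM or less. *IL2RB* and *IL18R1* ran at 1.27 to 2.87 CPM and 1.07 to 1.74 CPM. *IL1RAP*, the accessory chain of the IL1 and IL33 receptors, was higher than in siNC cells with siPDL1-1 (0.70 without and 0.81 with IFNγ) and with siPDL1-2 without IFNγ (1.12). With siPDL1-1 and IFNγ it was the 1 receptor gene of 8 called, against 5.47% of all genes.

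Genes that process or release IL18 and related cytokines rose in 5 of 11 tested cases (13 listed) with IFNγ in siNC cells, against 6.67% of all genes tested, and the other 6 did not pass. *CASP1*, the protease that matures IL18, went from 3.04 to 24.7 CPM (log2 difference 2.67, limma FDR 3.78e-12). *CASP4* (1.54) rose as well, as did *GSDMD* (0.91), whose product forms the pore through which IL18 leaves the cell. *CASP1* was also lower with siPDL1-1 than with siNC without IFNγ (-0.62, FDR 0.000123). Transcripts of the protease and of the decoy thus rose in the same libraries in which *IL18* itself differed by 0.02. Other genes of this list were scarce: *PYCARD* had 0 reads in all 12 libraries, and *NLRP3* and *CASP5* reached at most 0.823 and 0.117 CPM.

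Among 4 tested decoys and inhibitors other than *IL18BP* (8 listed), 2 rose with IFNγ in siNC cells, against 6.67% of all genes tested. These were *SOCS1* and *SOCS3*, inhibitors of cytokine receptor signalling inside the cell, with log2 differences of 2.61 and 0.81. *SOCS1* was the 1 gene of this list called with siPDL1-1 against siNC after IFNγ (1.67, FDR 4.95e-08), a comparison with 5.47% of all genes called, where it averaged 26.5 CPM against 7.66 CPM. Of 12 tested related ligands (26 listed), 1 rose with IFNγ in siNC cells, a share near the 6.67% of all genes: *FLT3LG*, a growth factor of dendritic cell precursors, went from 5.98 to 32.0 CPM (2.24, FDR 4.33e-11). *TNFSF13*, which encodes the BAFF relative APRIL, was the 1 ligand of 12 called with siPDL1-1 against siNC after IFNγ (0.60, FDR 0.00187), against 5.47% of all genes. With siPDL1-2 and IFNγ, *TNFSF13* differed from siNC by 0.52 (limma FDR 0.00597), under the fold threshold. Of 11 tested transcription factors (12 listed) 5 rose with IFNγ in siNC cells, against the same 6.67%, among them *IRF1* (4.85), *IRF9* (1.87) and *STAT2* (1.35). With siPDL1-1 against siNC after IFNγ, *STAT2* (1.59) and *IRF9* (0.65) were called higher and *IRF1* (-0.63) lower, against 5.47% of all genes called. With siPDL1-2 against siNC after IFNγ, these genes differed in the same directions, by 0.24, 0.20 and -0.50, each under the fold threshold. The limma FDR of *IRF1* there was 0.000140.

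The genes with the most similar pattern over the 6 group means were sought among 669 genes by the root mean square difference of centred log2(CPM + 1) values, where 0 is identity. *IL15* lay nearest to *TMPRSS3* (0.107) and *BTN3A1* (0.124), *IL15RA* to *HLA-E* (0.111) and *PSMB8* (0.133), and *IL32* to *HLA-C* (0.170) and *IRF9* (0.208). *TNFSF13B* had the smallest distances of the 8 genes examined, to *NOS2* (0.0353) and *FST* (0.0634). *IL12A* lay nearest to *SLFN11* (0.0780) and *ZNF385B* (0.0839), *CSF1* to *ACTA2* (0.112) and *ZMYND15* (0.121), and *IL7* to *BACH1* (0.161) and *FOXN2* (0.163). These distances rest on 6 means and describe likeness of pattern alone. They were not scaled by the size of a gene's change, so scarce genes compressed by adding 1 CPM can lie closer, and distances do not rank the genes.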

How the data were processed

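Poly(A) RNA of 12 U251 libraries (6 groups of 2) had been sequenced. Per the labels and the methods, the authors trimmed, aligned to GRCh38 and counted reads in CLC Genomics Workbench 22.0.2 with strand setting "both", and deposited 1 table of normalized signal, namely CPM scaled between libraries. Genes that overlap on opposite strands therefore share reads. The sources name different extraction kits and sequencers. Whole reads were recovered from the deposited values (100% within 0.05 of a whole read, 17101069 to 55657393 reads per library), and gave the filter (edgeR 4.0.16 filterByExpr, minimum count 10, minimum total 15) and the count tests. Log2(CPM + 1) was fitted with limma 3.58.1 (R 4.3.3; trend and robust empirical Bayes) as 6 groups, with Benjamini-Hochberg adjustment over 17982 genes, in 12 comparisons. Genes were called at an FDR below 0.01 and a fold change above 1.5. Alternatives were edgeR, DESeq2 1.42.0, other scaling, pseudocount and filter, the replicate number as a covariate, fits within a stimulation state, and leaving out each library. The fit was tested on simulated data. Exon lengths came from GENCODE 44 and intervals on read ratios were exact binomial ones at 95%. The genes and lists were chosen with earlier results of these data known. All 10 genes are described; from each list, receptor chains that passed the filter and up to 4 called genes with the largest change are named, and for each gene called anywhere the 2 genes of most similar pattern (mean of at least 1 CPM, SD of group means of at least 0.5). Some results that this rule selects are not reported here.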

Additional observations from a re-analysis of the deposited data

Results flagged for a closer look

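By limma's interaction term between siPDL1-2 and siNC cells, 2 of the 10 genes had an FDR below 0.01, and 1 of them, *IL7*, also passed the fold threshold, against 7.62% of all genes tested. For *IL7* the difference was -0.77 on the log2(CPM + 1) scale (FDR 0.00412). Pooled *IL7* reads without and with IFNγ were 5 and 108 in siNC cells and 26 and 27 in siPDL1-2 cells. The overlapping *ZC2HC1A* had an interaction of the same sign (-0.93, FDR 0.00167). In siPDL1-2 cells, however, the IFNγ difference of *ZC2HC1A* was -0.33 (FDR 0.0687) and that of *IL7* was 0.19. The other overlapping gene, *AC083837.1*, had an interaction of -0.11 (FDR 0.641). For *CSF1* the difference was 0.27 (FDR 0.00898), under a fold change of 1.5. Unstimulated siPDL1-2 libraries, at 70.9 and 70.3 CPM, lay below unstimulated siNC libraries at 92.7 and 91.5 CPM. The *CSF1* interaction of siPDL1-1 against siNC was 0.32 (FDR 0.017), so a larger response was not particular to siPDL1-2.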

How the results depend on the processing

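Of 28 calls on single genes, 23 held under every alternative that gave a value, no called difference changed sign, and 49 of 2187 alternative values had the other sign in results that were not called. For siPDL1-1 against siNC without IFNγ, 2 genes were called with edgeR, DESeq2 and a pseudocount of 0.1 CPM (1 in the fit reported), and 0 to 2 when 1 library was left out. For siPDL1-2 against siNC without IFNγ, 1 (*IL7*, FDR 0.00573) was called with that pseudocount. For siPDL1-1 against siNC with IFNγ, 0 were called with DESeq2 and that pseudocount. Between the PD-L1 siRNAs without IFNγ, 2 were called with edgeR, DESeq2 and that pseudocount. With IFNγ, 0 were called with edgeR and that pseudocount, and 0 to 1 with 1 library left out. For the IFNγ effect of siPDL1-2 minus siNC, 0 were called without the filter and 0 to 1 with 1 library left out. For siPDL1-1 minus siPDL1-2, 1 (*IL15*) was called with edgeR and that pseudocount, and 0 to 1 with 1 library left out. The cause was not tested. DESeq2 gave no adjusted p for *TNFSF13B* between the PD-L1 siRNAs with IFNγ or for the *IL7* interaction, so these have no value there. Over all genes, 876 were called for siPDL1-1 minus siPDL1-2, and 545 to 1396 with 1 library left out. For siPDL1-2 minus siNC, 1370 were called, and 890 without stimulated siPDL1-2 replicate 2. A left-out library leaves 1 in its group, which is assumed to vary like the others.

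Libraries with the same replicate number deviated together at r above 0.1 in 2 of 15 group pairs (range -0.13 to 0.19). Such weak correlations cannot tell whether the numbers pair the samples. The replicate block left the 12 counts at 8, 8, 7, 1, 0, 1, 0, 1, 1, 0, 1 and 0, as in the fit reported. *IL33*, *IL7* and *TNFSF13B* are limited by depth, with 0 to 20 reads in each unstimulated library.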
